A study of Rattus norvegicus with 9 samples.

Results

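The EGF family ligands and their ErbB receptors were followed across 3 groups of primary rat osteoblasts. The set held 10 genes, chosen by symbol: the ligand genes Hbegf, Areg, Ereg, Tgfa, Btc and Nrg1, the receptor genes Egfr, Erbb2 and Erbb3, and Errfi1, an inhibitor of the receptors. All 10 were present among the 19085 genes of the deposited table, each on 1 row, and 8 of them had enough counts for a test. Btc and Erbb3 did not.

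The cells were osteoblasts from the calvaria of male Sprague-Dawley pups 24 hours old, and all groups were kept for 7 days in osteogenic induction medium with fetal bovine serum, β-glycerophosphate, ascorbic acid and dexamethasone. The control group received nothing more, the thrombin group received 20 U/mL thrombin, and the PD03 group received 20 U/mL thrombin together with 0.1 μM of PD0325901 (PD03), which blocks the kinase MEK. Polyadenylated RNA of 3 libraries per group was sequenced. No group with PD03 alone was among the samples, so the PD03 group was compared with thrombin and with control, and these comparisons share libraries. The labels also name the knee as tissue and 0.1 mM as a PD03 concentration, against the calvaria and 0.1 μM of the design text.

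Ligands of the EGF family are made as membrane-anchored precursors, are cut free by ADAM proteases and bind ErbB receptor tyrosine kinases on the same or neighbouring cells. Egfr is the receptor for Hbegf, Areg, Ereg, Tgfa and Btc, Erbb2 has no ligand of its own and pairs with the other receptors, and Erbb3 binds neuregulins such as Nrg1. Protease-activated receptors, several of which thrombin cleaves, can release Hbegf and thereby activate Egfr and the RAS-RAF-MEK-ERK cascade. In bone, the Egfr pathway is known for keeping osteoblast precursors dividing.

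Total counts per library ran from 15447832 to 19841468, and Col1a1 alone took 6.78% to 6.96% of them with PD03 and 4.18% to 5.05% in the other groups. Levels are in CPM, the count of a gene scaled to the same library size by TMM, or in FPKM, the authors' length-corrected value, where different genes are compared. A gene was called when its adjusted p-value (edgeR quasi-likelihood test, two-sided, Benjamini-Hochberg over 13256 tested genes) was under 0.05 and its log2 fold change exceeded 0.58 in either direction. The study's methods call the 3 samples of a group independent, and neither they nor the labels say whether these were separate cultures or animals, so the p-values measure the spread between these samples. Of the osteoblast markers, Col1a1 had at least 705156 counts in every library, Runx2 509 to 906, Sp7 59 to 122 and Spp1 817 to 3349, whereas Alpl had 6 to 62, Bglap 1 to 5 and Ibsp 0 to 1. Spp1 was highest with thrombin (63.7, 185 and 53.1 CPM in control, thrombin and PD03). So were Runx2 (42.8, 51.1 and 32.1 CPM) and Sp7 (4.25, 6.20 and 4.95 CPM). Col1a1 was highest with PD03, as was Alpl (1.67, 0.345 and 3.11 CPM). Lineage-defining markers of other cells were low, with 0 to 6 counts per library for Cdh1 (epithelium) and Ptprc (leukocytes), 1 to 8 for Pecam1 (endothelium) and 0 to 13 for Sox10 (Schwann cells). Other genes of the same marker lists were well detected, with 57 to 222 counts for Krt8 (epithelial list), 249 to 562 for Cd14 (myeloid), 182 to 298 for Mitf and 37 to 84 for S100b (Schwann and melanocyte) and 100 to 172 for Tek (endothelial).

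In the control group, the inhibitor Errfi1 had the highest transcript level of the set, at 20.2 ± 1.41 FPKM (SD, n = 3). The receptors Egfr (13.1 ± 0.102 FPKM) and Erbb2 (10.1 ± 0.159 FPKM) followed, and Hbegf (9.68 ± 0.925 FPKM) was the most abundant ligand, with libraries that overlapped those of Erbb2. Tgfa (6.43 ± 0.733 FPKM) and Ereg (6.16 ± 1.44 FPKM) came next and overlapped each other. Areg stood at 1.71 ± 0.168 FPKM and Nrg1 at 0.830 ± 0.151 FPKM, while Btc (0.213 ± 0.148 FPKM) and Erbb3 (0.0801 ± 0.0827 FPKM) were at the lower end and overlapped. With thrombin, Hbegf passed both receptors to stand second at 17.1 ± 0.190 FPKM. With PD03, Hbegf stood first at 14.3 ± 1.34 FPKM, and Errfi1 stood at 8.03 ± 0.965 FPKM, below Egfr and with libraries that overlapped those of Erbb2 (8.43 ± 0.922 FPKM).

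**Figure D1:**
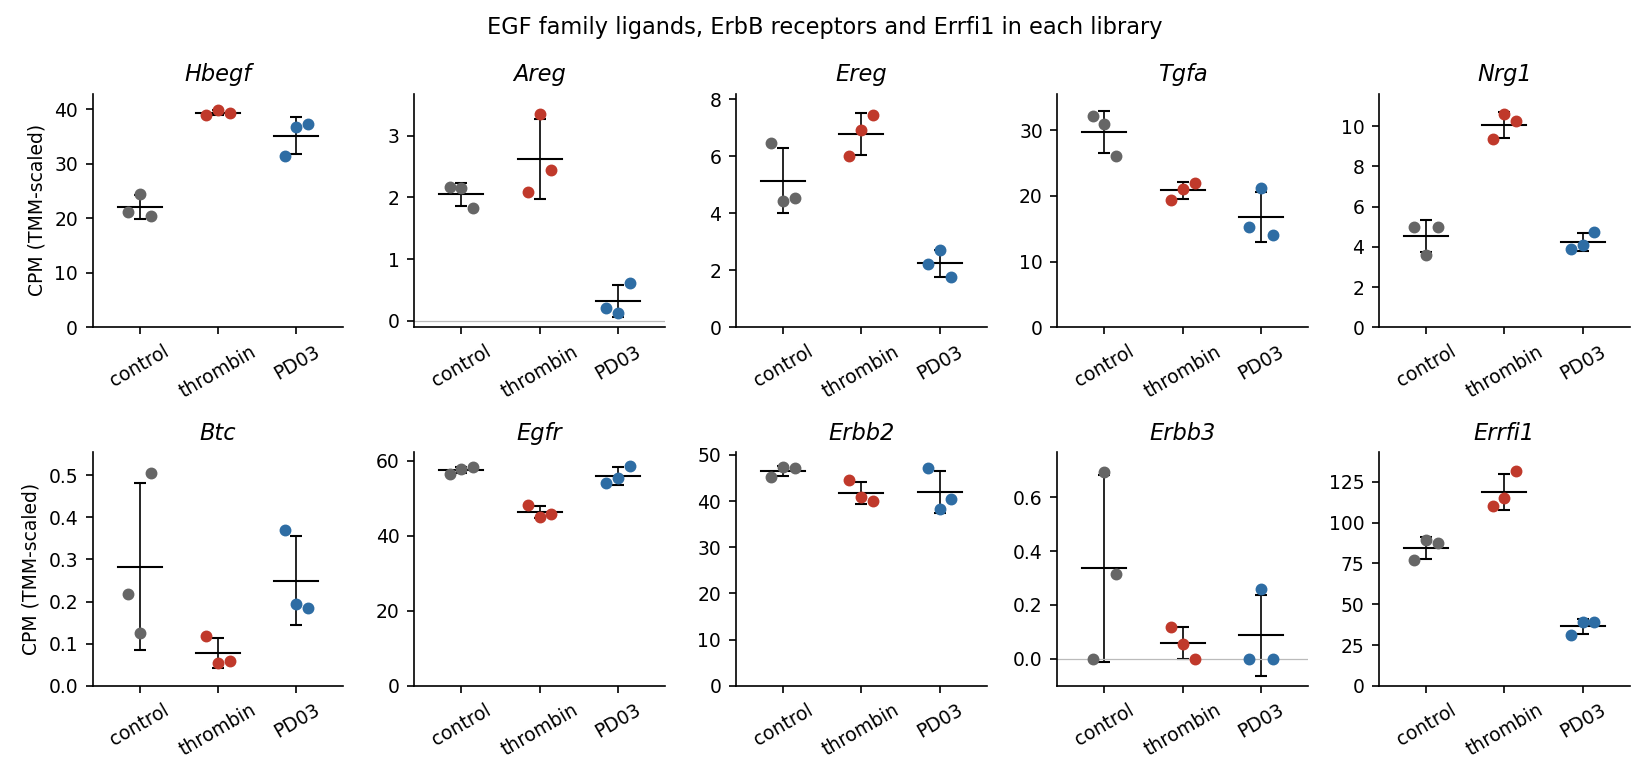
CPM after TMM scaling (vertical axis, linear, a separate scale for each gene) of the 10 genes in each library of the control, thrombin and PD03 groups. Points are libraries, and bars give the mean and SD of 3. Hbegf stayed above the control libraries in both treated groups, Areg, Ereg and Errfi1 were lowest with PD03, and Nrg1 was highest with thrombin.

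With thrombin against control, 2 of the 8 tested members were called (8.06% of all tested genes were), both of them higher (2.62% of all genes) and 0 lower (5.44%). A further 3 passed the p-value threshold with a smaller fold change, and 28.7% of all genes passed it at any fold. With PD03 against thrombin, 4 members were called (15.9% of all genes), all of them lower (6.31%) and 0 higher (9.61%), and 2 more passed the p-value threshold alone (49.8% of all genes at any fold). With PD03 against control, 5 were called (8.97%), 4 of them lower (4.07%) and 1 higher (4.90%), and no other passed the p-value threshold (39.9% at any fold). For the counts of 0 from edgeR, 3 members were lower with thrombin and 1 was higher with PD03 against thrombin at an unadjusted p under 0.05, and DESeq2 also called 0. Libraries of the compared groups did not overlap for 6 members with thrombin against control (40.3% of all genes, 20.1% higher and 20.2% lower), 6 with PD03 against thrombin (55.5%, 28.4% higher and 27.1% lower) and 5 with PD03 against control (47.8%, 23.7% higher and 24.0% lower), so a gap between the libraries was common among all genes. The median log2 fold change of the 8 genes was 0.37, -0.79 and -0.49 in these comparisons, beside -0.0060, 0.011 and -0.0039 for all tested genes. The members were put together with results of these data known, so the counts describe these 8 genes only.

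Hbegf encodes heparin-binding EGF-like growth factor, the ligand best known for its release downstream of thrombin receptors. Its level was 21.2, 24.5 and 20.4 CPM in the control libraries, 39.0, 39.9 and 39.4 CPM in the thrombin libraries and 31.4, 36.8 and 37.4 CPM in the PD03 libraries. Every library with thrombin, with or without PD03, lay above every control library. Hbegf rose 1.79-fold with thrombin (log2 fold change 0.84, standard error 0.08, adjusted p = 6.1e-12). The log2 difference between PD03 and thrombin was -0.17 and not called (95% interval -0.31 to -0.02, adjusted p = 0.053), although the libraries of these groups did not overlap. Scaled by library totals, that difference was -0.27 (adjusted p = 0.0021), and it was -0.088 without PD03 replicate 1 (adjusted p = 0.35). Against control, Hbegf was called higher in the PD03 group, by 1.59-fold (0.67 on the log2 scale with a standard error of 0.08, adjusted p = 2.2e-09). Its fold change fell just under the fold threshold with library totals (0.56, adjusted p = 1.6e-07) and when log2 FPKM with 1 or 0.1 added was used (0.51 and 0.55 on that log2 scale, adjusted p = 0.00013 and 9.7e-05 by limma), and by edgeR's glmTreat, which tests against the threshold itself, it was not called (adjusted p = 0.67).

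Areg encodes amphiregulin, a low-affinity Egfr ligand. It had 40, 34 and 29 counts in the control libraries, 35, 61 and 42 in the thrombin libraries and 4, 2 and 10 in the PD03 libraries. The control and thrombin libraries overlapped, and all PD03 libraries were far below both. In CPM, these were 2.05 ± 0.191, 2.63 ± 0.650 and 0.318 ± 0.258. Thrombin and control could not be told apart at this depth (log2 fold change 0.36, 95% interval -0.21 to 0.92, adjusted p = 0.38). Areg was 8.17-fold lower with PD03 than with thrombin (log2 fold change -3.03, standard error 0.39, adjusted p = 1.4e-08). Against control the log2 fold change was -2.67 (standard error 0.41, adjusted p = 7.3e-07). Without PD03 replicate 3, the library with 10 counts, these values were -3.86 against thrombin and -3.50 against control.

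Ereg encodes epiregulin, a ligand for Egfr and Erbb4. Its level was 6.47, 4.42 and 4.55 CPM in the control libraries, 6.01, 6.91 and 7.46 CPM with thrombin and 2.22, 2.72 and 1.78 CPM with PD03. As for Areg, control and thrombin libraries overlapped and the PD03 libraries lay below all others. Ereg fell by 1.60 on the log2 scale from thrombin to PD03 (standard error 0.20, adjusted p = 4.0e-09) and by 1.21 against control (standard error 0.20, adjusted p = 4.5e-06). Thrombin against control gave 0.39 (standard error 0.17, adjusted p = 0.086). Control replicate 1 held the highest control value, and without it Ereg was called higher with thrombin (log2 fold change 0.60, adjusted p = 0.016).

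In the RefSeq gene table for the newer rat assembly GRCr8, Btc, Areg, Ereg and Epgn follow one another as neighbouring coding genes on chromosome 14. Epgn encodes epigen, another Egfr ligand, and had 0 to 2 counts per library. Btc encodes betacellulin and had 4, 2 and 8 counts in the control libraries, 2, 1 and 1 with thrombin and 7, 3 and 3 with PD03. These sum to 14 counts (exact 95% Poisson interval 7.65 to 23.5), 4 counts (1.09 to 10.2) and 13 counts (6.92 to 22.2), and the intervals, which cover counting error only, overlap. Overlap of such intervals is not a test of a difference. In CPM, the Btc libraries with thrombin (0.055 to 0.119) lay below those of control (0.126 to 0.505) and PD03 (0.184 to 0.371). Of these neighbours, therefore, Areg and Ereg could be tested and both fell with PD03, while Btc and Epgn were too low for a test.

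Tgfa, the gene of transforming growth factor alpha and a high-affinity Egfr ligand, moved down in both treated groups. It stood at 32.1, 30.9 and 26.1 CPM in the control libraries, 19.5, 21.1 and 22.0 CPM with thrombin and 15.3, 21.2 and 14.0 CPM with PD03. All treated libraries were below all control libraries, and the treated groups overlapped. Against control, Tgfa fell by 0.83 on the log2 scale with PD03 (standard error 0.10, adjusted p = 7.6e-09), a call that glmTreat did not make (adjusted p = 0.058). The difference was -0.51 with thrombin (standard error 0.10, adjusted p = 6.5e-05), past the p-value threshold but not the fold threshold, and -0.59 and called without Control replicate 3. With PD03 against thrombin it was -0.32 (standard error 0.11, adjusted p = 0.012), again under the fold threshold.

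Nrg1 encodes neuregulin 1, which signals through Erbb3 and Erbb4 paired with Erbb2. Its level was 5.00, 3.60 and 4.99 CPM in the control libraries, 9.34, 10.6 and 10.3 CPM with thrombin and 3.87, 4.08 and 4.71 CPM with PD03. The thrombin libraries lay above all others, and the control and PD03 libraries overlapped. Nrg1 rose 2.21-fold with thrombin (log2 fold change 1.15, standard error 0.15, adjusted p = 5.2e-08). With PD03 it was 2.39-fold lower than with thrombin (log2 fold change -1.26, standard error 0.15, adjusted p = 3.1e-09). PD03 against control gave -0.11 (95% interval -0.45 to 0.23, adjusted p = 0.65). Nrg1 has many transcript forms, which counts per gene do not separate.

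**Figure D2:**
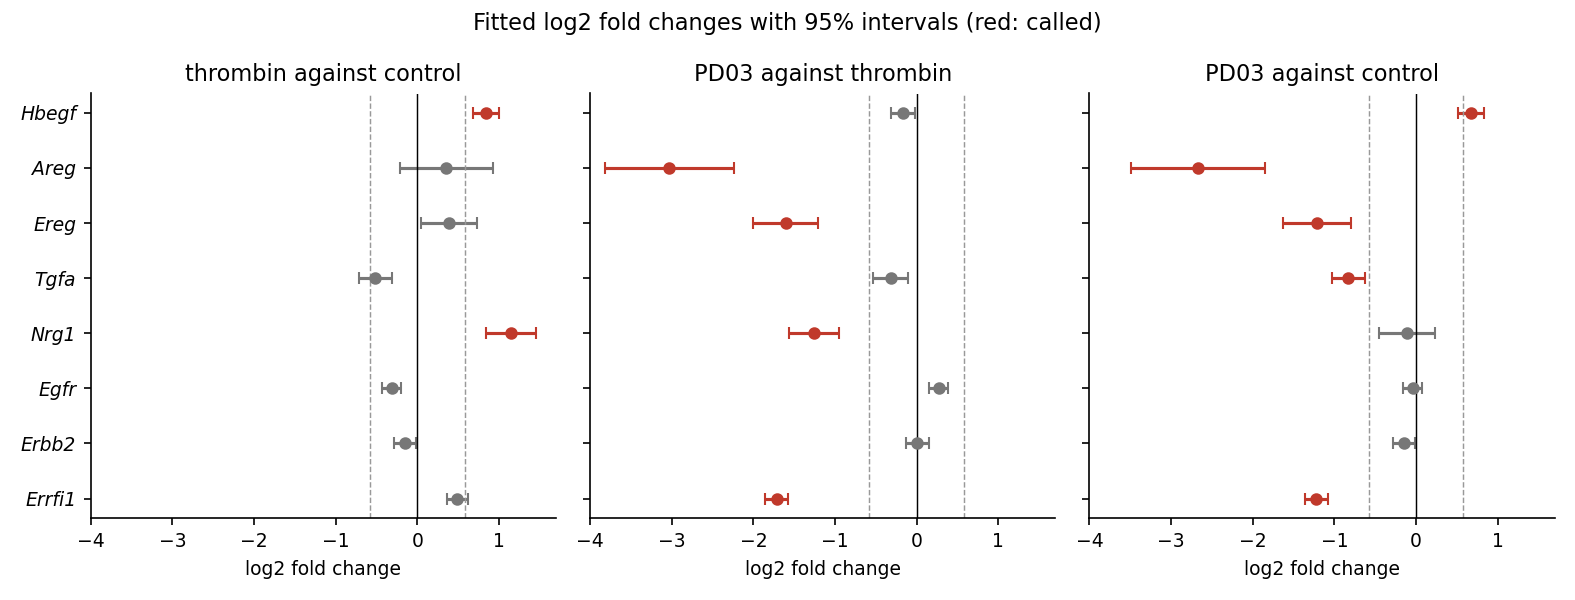
Log2 fold changes (horizontal axis) of the 8 tested members in the 3 comparisons between groups, from edgeR. Points are fitted values, bars are 95% intervals, red marks called genes and dashed lines mark 0.58 in either direction. Hbegf and Nrg1 were both called higher with thrombin, but with PD03 against thrombin Hbegf stood at -0.17 and Nrg1 at -1.26.

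Hbegf, Tgfa, Ereg, Areg and Btc were also taken as a mixture of Egfr ligands, which leaves out Egf and Epgn, not among the 10 genes. Their summed level was 24.2 ± 2.24 FPKM in the control group, 31.8 ± 1.54 FPKM in the thrombin group and 20.5 ± 1.89 FPKM in the PD03 group. Hbegf made up 40.1% ± 3.98 of the sum in the control group, 53.9% ± 2.24 in the thrombin group and 69.6% ± 3.82 in the PD03 group (SD, n = 3 each). The shares of the groups did not overlap, with 35.9% to 43.7% in control libraries, 52.3% to 56.4% with thrombin and 66.6% to 73.9% with PD03. A share within a library does not depend on how libraries are scaled. Ereg held 25.4% ± 4.18 in the control group and 25.2% ± 1.66 in the thrombin group, and 12.0% ± 2.17 in the PD03 group. Areg made up 7.06% ± 0.176, 6.76% ± 1.44 and 1.20% ± 0.966 of the sum in control, thrombin and PD03, whereas Tgfa went from 26.5% ± 0.741 in the control group to 14.0% ± 0.354 with thrombin and 16.3% ± 2.63 with PD03. With 3 libraries a group an exact two-sided permutation test cannot go below 0.10, so these shares are given as a description.

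**Figure D3:**
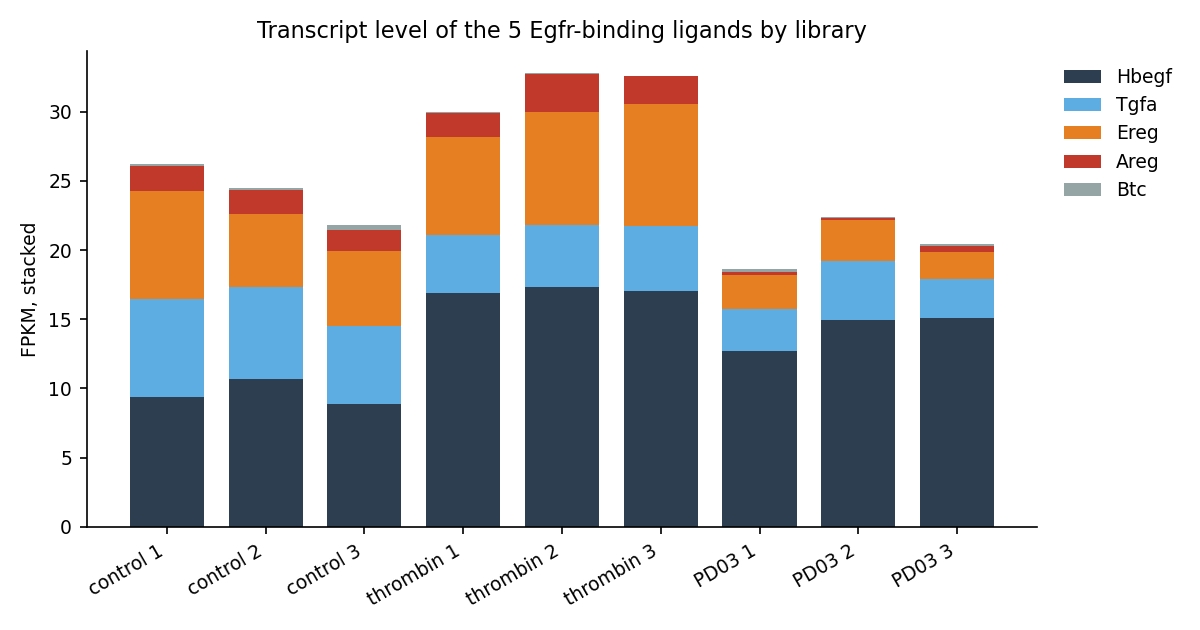
Stacked deposited FPKM values (vertical axis, linear from 0) of 5 Egfr ligands, Hbegf, Tgfa, Ereg, Areg and Btc in each of the 9 libraries. The Hbegf segment reached 12.7 to 15.1 FPKM in the PD03 libraries against 8.91 to 10.7 in the control libraries, while the Ereg and Areg segments were thinnest with PD03.

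Of the receptor genes only Egfr and Erbb2 could be tested, and neither was called in any comparison. Egfr, the receptor of most of these ligands, stood at 56.6, 57.6 and 58.4 CPM in the control libraries, 48.1, 44.9 and 45.9 CPM with thrombin and 53.9, 55.4 and 58.6 CPM with PD03. The thrombin libraries were below all others, and control and PD03 overlapped. On the log2 scale, thrombin and control differed by -0.31 (adjusted p = 3.4e-05) and PD03 and thrombin by 0.27 (adjusted p = 0.00011), each with a standard error of 0.06 and under the fold threshold. PD03 and control differed by -0.04 (95% interval -0.15 to 0.08). Summed markers of epithelium (3.87 to 5.21 CPM with thrombin, 6.74 to 8.52 in control, 9.86 to 13.0 with PD03) and of Schwann cells and melanocytes (15.2 to 16.4, 18.8 to 20.6 and 20.2 to 24.0 CPM) were also lowest with thrombin, and their part in the Egfr values was not tested. Summed endothelial markers were highest with PD03 (11.1 to 12.6 CPM against 6.31 to 8.51 in the other groups). Erbb2, the co-receptor, ranged from 38.3 to 47.3 CPM over all 9 libraries and was called in no comparison (log2 fold changes -0.15, 0.0089 and -0.14, adjusted p = 0.086, 0.93 and 0.087). The sign of its difference between PD03 and thrombin was negative with library totals (-0.090), with no filter, from the FPKM values and in DESeq2. Erbb3 had 0, 11 and 5 counts in the control libraries, 2, 1 and 0 with thrombin and 0, 4 and 0 with PD03. With sums of 16 (exact 95% Poisson interval 9.15 to 26.0), 3 (0.619 to 8.77) and 4 (1.09 to 10.2), it was at or near the floor of 3 counts per group in both treated groups, which is 0.0575 CPM for thrombin and 0.0592 CPM for PD03, and 11 of the 16 control counts came from 1 library. The control and thrombin intervals of Erbb3 did not overlap, but they cover counting error only, and the libraries of these groups overlapped. The remaining receptor, Erbb4, had at most 1 count in any library. Of the other ligand genes, Egf had 26 to 47 counts and was called in no comparison (2.12, 1.79 and 2.33 CPM in control, thrombin and PD03), Nrg2 had 3 to 12 counts and Nrg4 had 1 to 6.

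Errfi1 encodes Mig-6, which binds the kinase domain of active ErbB receptors and blocks it, and its transcription is a known response to EGF signalling. Its level was 77.0, 89.1 and 87.8 CPM in the control libraries, 110, 115 and 131 CPM with thrombin and 31.3, 38.9 and 38.9 CPM with PD03. The 3 groups did not overlap. Thrombin against control gave 0.49 on the log2 scale (standard error 0.06, adjusted p = 3.0e-08), past the p-value threshold and under the fold threshold. Errfi1 fell by 1.71 on the log2 scale from thrombin to PD03 (standard error 0.07, adjusted p = 6.7e-24), to a 3.28-fold lower level, and by 1.22 against control (standard error 0.07, adjusted p = 3.0e-18). Within a library, the ratio of Errfi1 to Egfr in FPKM was 1.54 ± 0.102 in the control group, 2.70 ± 0.305 with thrombin and 0.681 ± 0.0650 with PD03 (SD, n = 3 each), again without overlap. As the RNA is from bulk cultures, fewer cells with a transcript and less of it per cell cannot be told apart. The summed level of 5 myeloid marker genes, most of it from Cd14, also ran higher with thrombin (29.0 to 32.6 CPM) than in the control group (20.0 to 23.4 CPM) or with PD03 (17.3 to 18.3 CPM), with Ptprc at 0 to 6 counts per library. Its part in the values of Nrg1 and Errfi1 was not tested.

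Promoter windows were found for 7 of the 10 members in the RefSeq promoter table (GRCr8). They are shown for Areg and Errfi1, which fell with PD03 below the control level, and for Tgfa, which fell against control in a smaller measure. Each is the 250 bases before the annotated start of the gene, 5′ to 3′ on the gene's strand, at chr14:17265642-17265891 (minus strand), chr5:166606591-166606840 (plus strand) and chr4:120175469-120175718 (plus strand). Capitals mark TGACG or its reverse complement CGTCA, the half-site of the cyclic AMP response element TGACGTCA, and TATAAA.
Areg: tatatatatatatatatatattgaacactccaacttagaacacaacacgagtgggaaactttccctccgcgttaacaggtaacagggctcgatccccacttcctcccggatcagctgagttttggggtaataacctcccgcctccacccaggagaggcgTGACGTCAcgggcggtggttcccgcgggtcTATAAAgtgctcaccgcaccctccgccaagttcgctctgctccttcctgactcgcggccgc
Errfi1: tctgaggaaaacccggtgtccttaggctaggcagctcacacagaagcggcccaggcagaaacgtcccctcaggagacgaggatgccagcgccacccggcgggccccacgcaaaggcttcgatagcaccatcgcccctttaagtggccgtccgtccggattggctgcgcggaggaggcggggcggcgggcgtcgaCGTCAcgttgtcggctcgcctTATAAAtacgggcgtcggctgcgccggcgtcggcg
Tgfa: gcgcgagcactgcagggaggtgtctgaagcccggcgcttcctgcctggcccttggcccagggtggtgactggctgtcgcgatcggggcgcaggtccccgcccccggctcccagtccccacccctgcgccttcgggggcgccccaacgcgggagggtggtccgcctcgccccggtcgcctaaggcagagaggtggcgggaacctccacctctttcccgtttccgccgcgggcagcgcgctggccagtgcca

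Areg held the full element TGACGTCA 91 to 84 bases before its start, which contains the half-site on both strands, and TATAAA 61 to 56 bases before it. Errfi1 held the half-site on the opposite strand 56 to 52 bases before its start and TATAAA 35 to 30 bases before it, and Tgfa held neither. Searched on both strands, TGACGTCA was present in 1.59% of all 33469 windows of this length, TGACG in 18.2% and TATAAA in 12.9%. No window of the 7 members held the AP-1 motif TGANTCA (6.34% of all windows) or a CArG box (1.50%), and CCGGAAG, an ETS-type motif (7.27%), was present in Egfr alone. The half-site was present in Hbegf as well, 193 to 189 bases before its start. The motifs were chosen after the windows of Areg and Errfi1 had been seen, and a match is a run of letters, not evidence of binding.

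Genes whose level ran most like that of a member over the 9 libraries were looked up for Areg and Egfr, the tested ligand and receptor with the widest range of group means, and for Errfi1, among 12368 genes with at least 1 CPM. The libraries fall into 3 groups, so these correlations mostly restate group differences. Rwdd4 (Pearson's r = 0.985), Sox7 (0.982) and Rapgef6 (0.982) were nearest to Areg. The transcription factor gene Sox7 stood at 1.20 ± 0.119 CPM in the control group, 1.30 ± 0.0729 with thrombin and 0.495 ± 0.155 with PD03. Plce1, the gene of a phospholipase C that RAS activates, was nearest to Egfr (r = 0.983), at 29.9 ± 1.24, 21.1 ± 1.10 and 30.2 ± 2.50 CPM, followed by Sema3g (0.982) and the collagen gene Col6a3 (0.978). Nearest to Errfi1 were Lig1 (0.998), which encodes the replicative DNA ligase, Traip (0.997) and the chromatin protein gene Hmgb2 (0.996). Lig1 stood at 96.8 ± 1.81 CPM in the control group, 107 ± 3.85 with thrombin and 72.4 ± 2.76 with PD03, a narrower range than that of Errfi1.

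The proteases that free ErbB ligands, and their regulators, were taken as a list of 11 genes, 10 of them tested. Adam17 and Adam10, the main sheddases of the Egfr ligands, were called in no comparison: Adam17 stood at 136, 132 and 112 CPM in control, thrombin and PD03 (adjusted p = 2.3e-05 between the last 2, log2 fold change -0.24), and Adam10 at 84.8, 77.0 and 80.3 CPM. Adam12, the gene of the list with the highest CPM (620, 823 and 641), was not called either. Its log2 fold change was 0.41 with thrombin (adjusted p = 3.0e-12) and -0.36 with PD03 against thrombin (adjusted p = 3.5e-11). Thrombin against control called 0 genes of the list higher and 2 lower (2.62% and 5.44% of all tested genes), and PD03 against thrombin called 2 higher and 1 lower (9.61% and 6.31%). Over the list, median log2 fold changes were -0.023 and 0.040, and the second was -0.059 with library totals and negative from the FPKM values. At an unadjusted p under 0.05, 4 genes of the list were higher with thrombin and 3 lower, and DESeq2 called 0 higher and 1 lower. Timp3, an inhibitor of Adam17, fell from 14.9 ± 1.63 CPM to 8.77 ± 1.23 CPM with thrombin (log2 fold change -0.76, adjusted p = 2.8e-07) and rose to 34.0 ± 0.501 CPM with PD03 (1.96 against thrombin, adjusted p = 1.4e-20). Adam15 moved the same way, with -0.59 (adjusted p = 4.9e-11) and 0.93 (adjusted p = 8.5e-18), though its fall with thrombin was -0.58 and no longer called with DESeq2 size factors and -0.57 from the FPKM values with 1 added. Rhbdf2, which encodes the iRhom2 partner of Adam17, fell by 0.68 on the log2 scale with PD03 against thrombin (adjusted p = 3.2e-11).

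F2r, which encodes PAR-1, the main thrombin receptor, had mean levels of 281, 242 and 451 CPM in control, thrombin and PD03. It was called higher with PD03 against thrombin (log2 fold change 0.90, adjusted p = 1.2e-23) and against control (0.68, adjusted p = 2.6e-19), a call against control that was lost just under the fold threshold with library totals (0.56, adjusted p = 1.3e-16) and on the log2 FPKM scale with either pseudocount (0.56 for both). F2rl1 (3.52, 5.28 and 4.09 CPM) and F2rl2 (4.33, 4.84 and 3.46 CPM) were called in no comparison after TMM scaling, but F2rl1 was called higher with thrombin with DESeq2 size factors. F2rl3 had 0 to 6 counts. The paper blocked PAR-1 with the antagonist Vorapaxar and saw no reversal of the fall in osteogenic markers, measured as Col1α1, Runx2 and OCN protein. From this it concluded that the inhibition by thrombin was independent of PAR-1. In the RNA here, Runx2 was higher with thrombin (51.1 CPM) than in control (42.8 CPM). Col1a1 was lower (42854 and 47443 CPM), and Bglap, the OCN gene, had 1 to 5 counts. Whether PAR-1 acts on the ligand genes was not tested.

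Of 10 adaptor genes, edgeR called 0 with thrombin against control (2 higher and 2 lower at an unadjusted p under 0.05, 0 by DESeq2), and 2 with PD03 against thrombin, where 8.06% and 15.9% of all tested genes were called. Gab1, a docking protein, was higher with PD03 than with thrombin (log2 fold change 0.65, adjusted p = 2.7e-08), a call lost with library totals (0.55) and from the FPKM values. Shc1, which links the receptors to Grb2, was lower (-0.61, adjusted p = 4.9e-18). Of 12 genes for turnover and inhibition, edgeR called 0 with thrombin against control (2 higher and 3 lower at an unadjusted p under 0.05, 0 by DESeq2), and 1 with PD03 against thrombin, the phosphatase gene Ptpn12 (-0.62, adjusted p = 1.4e-12). Lrig1, which encodes a membrane protein that sends ErbB receptors to degradation, was chosen after its values were seen: it stood at 47.0, 35.1 and 26.0 CPM and was called lower with PD03 against control (-0.85, adjusted p = 1.2e-13). With thrombin its log2 fold change was -0.42 (adjusted p = 2.4e-06), under the fold threshold.

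Most genes of a list known to respond to MEK and ERK were lower with PD03. Of its 15 genes, all tested, thrombin against control called 2 higher (2.62% of all tested genes) and 0 lower (5.44%), with a median log2 fold change of 0.045. PD03 against thrombin called 11 lower (6.31% of all) and 0 higher (9.61%), with a median of -1.03. With PD03 against control the count was again 11 lower (4.07% of all) and 0 higher (4.90%), with a median of -1.17. DESeq2 gave the same counts, and at an unadjusted p under 0.05 edgeR had 6 lower with thrombin and 1 higher in each PD03 comparison. The genes called with thrombin were Phlda1 (0.98, adjusted p = 9.5e-16) and the phosphatase gene Dusp4 (0.94, adjusted p = 2.1e-07). The largest falls with PD03 against thrombin were in Egr1 (-3.70, adjusted p = 1.7e-27), Phlda1 (-2.70, adjusted p = 5.2e-29), Etv4 (-2.62, adjusted p = 1.3e-18) and Dusp6 (-2.40, adjusted p = 4.1e-20). Egr1, an immediate early transcription factor, went from 339 CPM in the control group and 243 CPM with thrombin down to 18.7 CPM with PD03. Dusp6, the ERK phosphatase, stood at 30.4, 23.1 and 4.32 CPM. The range of the MEK list in that comparison (-3.70 to 0.42) was wide. All 8 tested members lay within it, from Areg (-3.03) to Egfr (0.27), so it sets none of them apart.

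**Figure D4:**
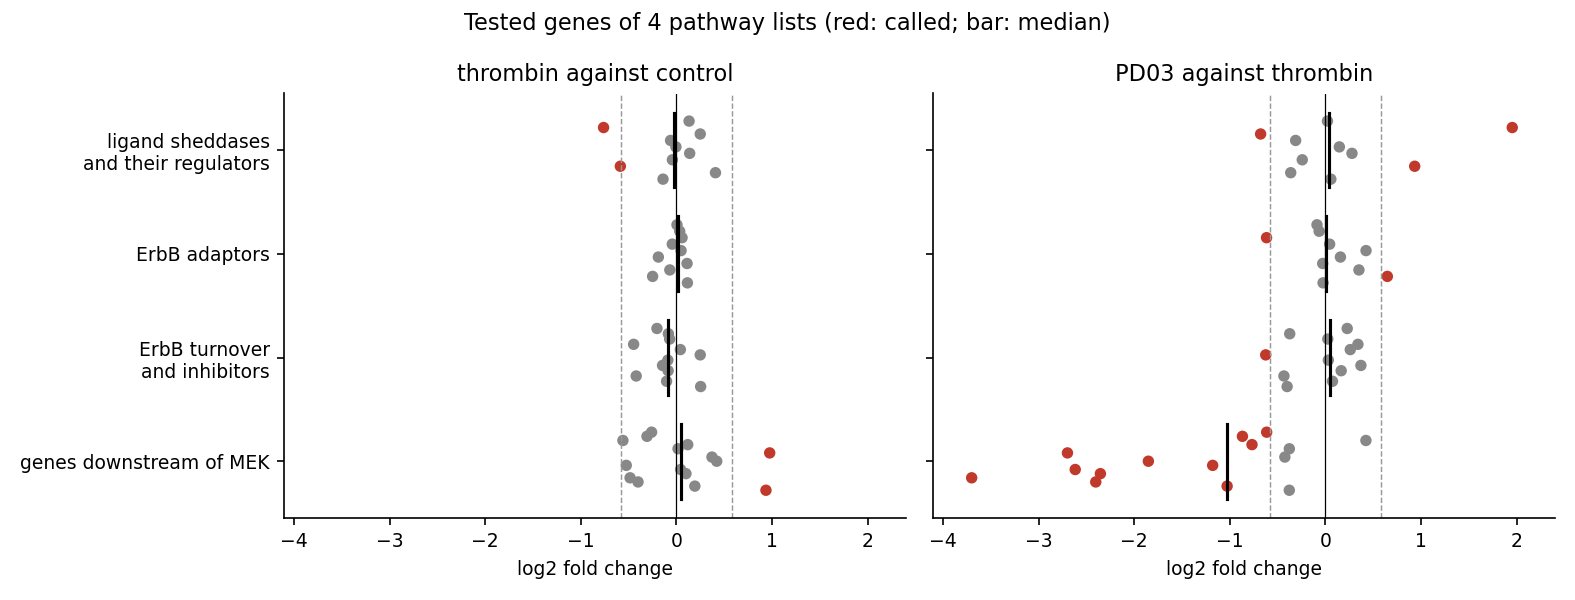
Log2 fold changes (horizontal axis) of the tested genes in 4 lists (ligand sheddases and their regulators, ErbB adaptors, ErbB turnover and inhibitors, genes downstream of MEK) for thrombin against control and PD03 against thrombin. Each point is a gene, red marks called genes, the black bar is the list's median and dashed lines mark 0.58 in either direction. The MEK list had a median of -1.03 for PD03 against thrombin, beside 0.040, 0.011 and 0.053 for the other lists.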

How the data were processed

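Polyadenylated RNA of 9 libraries (3 each for control, thrombin and PD03) was sequenced by the authors. Per the paper, reads were trimmed with fastp, aligned with HISAT2 to Rnor_6.0 and counted per gene with featureCounts, whereas the submitters' processing notes name mRatBN7.2 and HTSeq 0.13.5. For the annotation release and strandedness, nothing is given in the sources used. The authors deposited raw counts per gene and FPKM values scaled by library and gene length. Genes were kept by filterByExpr (minimum count 10), libraries were scaled by TMM, and all 9 were fitted by group with edgeR 4.0.16 (R 4.3.3). CPM uses the effective library sizes of that fit. Thresholds followed the paper's methods, with edgeR in place of the authors' DESeq2. The standard error was taken from the F statistic. No replicate pair agreed within sampling noise (chi-square divided by its degrees of freedom, 1.81 to 3.88). DESeq2 1.42.0, limma 3.58.1 on log2 FPKM, other scalings and filters, a replicate block and leaving out each library were alternatives. The procedure was tested on simulated data.

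The members and lists were chosen with earlier results of these data known. All 10 members, the other ligands and receptors and the genes of the protease-activated receptors are named. From each other list up to 4 called genes with the largest change in thrombin against control and in PD03 against thrombin are named. Adam10, Adam12, Adam17 and Lrig1 were singled out after their values were seen. Figures used Python 3.11.15 and matplotlib 3.10.9. Sequences are from RefSeq tables, and no protein sequence was used here.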

Additional observations from a re-analysis of the deposited data

How the results depend on the processing

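Counts of called members held within 1.5 times under most alternatives. For PD03 against control, the 1 member called higher (Hbegf) became 0 with library totals, with glmTreat and from FPKM with 1 or 0.1 added. With library totals the median of all genes in that comparison shifted to -0.12. With no fold threshold, thrombin against control called 2 members lower and PD03 against thrombin 1 higher, where 0 were called before. Leaving out 1 library gave 2 to 3 higher and 0 to 1 lower with thrombin against control, 0 higher and 4 lower with PD03 against thrombin, and 1 higher and 4 lower with PD03 against control. By CPM in place of FPKM, 4 of the 10 members kept their rank by level in the control group. The log2 fold change of Erbb2 between PD03 and thrombin, 0.0089 as reported, changed sign to -0.090 with library totals, -0.0088 with no filter, -0.0022 with DESeq2 and -0.089 and -0.098 from FPKM with 1 and 0.1 added, and ran from -0.087 to 0.059 over the libraries left out. The cause was not tested. Same-numbered libraries did not deviate together (correlations -0.046 to 0.052 over 9 pairs), and the fit with the replicate number as a block called the same numbers of members, 2 higher with thrombin against control, 4 lower with PD03 against thrombin, and 1 higher and 4 lower with PD03 against control. Btc and Erbb3, with at most 11 counts in any library, and Areg with PD03, with 2 to 10 counts, are limited by depth.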
